A study of Mus musculus with 23 samples.

Results

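The genes described here are 10 heat shock genes of the mouse: *Hspb1*, *Hspa1a*, *Hspa1b*, *Hspa5*, *Hspa8*, *Hsph1*, *Dnajb1*, *Hsp90aa1*, *Hsp90ab1* and *Hsf1*. They were chosen by name, and their probes were found through the accession that the scanner files give for each probe. Of these 10 genes, 9 were measured by 12 probes, out of 26512 genes tested. *Hspa8* had 3 probes, *Hsph1* had 2 and the other measured genes had 1 each, whereas no probe was mapped to *Hspa1b*. All 12 probes were well above background on all 23 arrays.

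The RNA came from bone marrow-derived macrophages (BMDM) that had been differentiated with M-CSF from male C57BL/6 mice (C57BL/6J in the methods of the study) aged 10 to 14 weeks, with wild-type littermates as wt. The 6 groups were wt, MK2-/- and MK2/3-/- BMDM, each in cell culture medium or after 120 min with 100 ng/ml LPS, the bacterial endotoxin sensed by TLR4. MK2-/- cells lack the p38-activated kinase MK2 and MK2/3-/- cells lack MK2 and its relative MK3, and the labels list no heat treatment. There were 4 arrays a group and 3 of MK2-/- BMDM in medium, and medium and LPS arrays of a genotype with the same number, mouse age and slide column are called a culture here. The MK2-/- medium array that the labels number 3 had the age and slide column of culture 4 and was assigned to it. Levels are log2 signals after quantile normalization, on which a difference of 1 is a 2-fold change, and levels of different probes cannot be set against each other. All arrays of a genotype lay on a slide of their own, so genotype and slide cannot be told apart. On every slide the medium arrays lay in row 1 and the LPS arrays in row 2, so LPS treatment and slide row cannot be told apart either.

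All 6 macrophage markers measured (*Adgre1*, *Itgam*, *Csf1r*, *Lyz2*, *Fcgr1* and *Mertk*) were well above background on every array, and all 5 genes of a list of known LPS targets rose in each genotype. The log2 of the summed macrophage signals was between 18.68 and 19.44, and *Fcgr1* and *Mertk* fell with LPS in wt and MK2-/- BMDM. Of the 4 dendritic cell markers, *Zbtb46* rose in all 3 genotypes and *Ccr7* in wt BMDM. Over all genotypes and cultures, the summed dendritic signals of medium (10.83 to 13.62) and LPS arrays (11.79 to 13.93) overlapped. Within every culture with both arrays, however, the sum was higher after LPS. It went from 10.83 to 11.99 in wt culture 3, but only from 13.62 to 13.70 in MK2/3-/- culture 1. No neutrophil, lymphocyte, erythroid or fibroblast marker changed with LPS. *Elane*, *Cd3e*, *Cd79b* and *Slc4a1* were well above background on all 23 arrays, whereas *Cd3d* and *Alas2* were so on none. The part of other cells in the results below was not tested, apart from the values given beside *Hspb1*. *Mapkapk2*, which encodes MK2, was lower by 3.31 (log2 difference -3.31, adjusted p = 5.9e-06) in MK2-/- and by 3.50 (-3.50, adjusted p = 3.0e-07) in MK2/3-/- than in wt BMDM in medium, and after LPS the differences were -2.81 (adjusted p = 2.5e-05) and -3.01 (adjusted p = 2.6e-06). *Mapkapk3*, which encodes MK3, differed between MK2/3-/- and wt BMDM, with a log2 difference of -1.62 in medium (adjusted p = 5.9e-05) and -3.30 after LPS (adjusted p = 1.2e-09).

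Heat shock proteins are chaperones that bind unfolded proteins. HSP70 proteins (*Hspa1a*, *Hspa8* and, in the endoplasmic reticulum, *Hspa5*) work in a cycle of ATP hydrolysis that J-domain proteins such as *Dnajb1* start and that nucleotide exchange factors such as *Hsph1* reset, and HSP90 proteins (*Hsp90aa1*, *Hsp90ab1*) take over late folding intermediates. HSF1, the product of *Hsf1*, is the transcription factor that binds heat shock elements, which are inverted repeats of GAA units, while *Hspa5* is known for its control by the unfolded protein response through ER stress elements. *Hspb1* encodes a small heat shock protein that MK2 phosphorylates, which alters its oligomers and the actin cytoskeleton. The arrays measured transcripts, not phosphorylation.

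The stretches of 250 bases before the transcription start are shown for the HSP70 gene *Hspa1a*, for its J-domain partner *Dnajb1*, for *Hspa5* and for *Hspb1*, because the results turn on these genes. They are RefSeq sequences of GRCm38.p6 and run 5′ to 3′ on the strand of the gene. Capitals mark the letters GAANNTTC or TTCNNGAA, which are a pair of inverted heat shock units, and in *Hspa5* an ER stress element, which is CCAAT and CCACG separated by 9 bases.
Hspa1a, chr17:34972157-34972406, minus strand: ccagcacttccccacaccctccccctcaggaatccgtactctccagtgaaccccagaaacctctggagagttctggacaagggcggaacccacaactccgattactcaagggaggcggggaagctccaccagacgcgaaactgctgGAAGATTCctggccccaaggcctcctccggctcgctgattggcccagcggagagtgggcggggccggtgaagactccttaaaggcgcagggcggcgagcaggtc
Dnajb1, chr8:83607925-83608174, plus strand: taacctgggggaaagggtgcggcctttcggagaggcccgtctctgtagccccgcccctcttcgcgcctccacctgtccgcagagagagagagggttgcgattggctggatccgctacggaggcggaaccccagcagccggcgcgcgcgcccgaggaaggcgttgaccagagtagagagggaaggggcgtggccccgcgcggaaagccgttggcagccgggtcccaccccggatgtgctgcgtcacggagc
Hspa5, chr2:34771840-34772089, plus strand: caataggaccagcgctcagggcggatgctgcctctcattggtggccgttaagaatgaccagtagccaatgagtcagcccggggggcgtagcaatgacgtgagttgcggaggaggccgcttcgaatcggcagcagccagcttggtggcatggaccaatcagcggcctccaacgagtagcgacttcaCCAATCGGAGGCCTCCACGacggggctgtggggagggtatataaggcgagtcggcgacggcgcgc
Hspb1, chr5:135887669-135887918, plus strand: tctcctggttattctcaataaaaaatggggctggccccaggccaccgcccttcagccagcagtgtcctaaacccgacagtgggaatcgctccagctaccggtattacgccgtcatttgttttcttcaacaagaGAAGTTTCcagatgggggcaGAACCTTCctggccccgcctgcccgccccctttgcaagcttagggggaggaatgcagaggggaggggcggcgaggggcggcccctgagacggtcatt

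The reference table held such windows for 6 of the 10 genes, and 4 of them (*Hspb1*, *Hspa1a*, *Hspa1b* and *Hsph1*) contained the pair of heat shock units, which was found in 12.8% of all 32851 windows. Both letter patterns are their own reverse complement, so each covers both strands. The *Hspb1* window contained GAANNTTC at 117 to 110 and at 97 to 90 bases before the start, and the *Hspa1a* window at 104 to 97 bases before the start. No further exact unit followed at the same spacing in any of the 6 genes, a pattern of 0.466% of all windows. Only exact GAA and TTC letters were searched, so units that differ in a letter were neither marked nor counted. The *Dnajb1* windows, of which the table held 2 for different starts, contained none of these letters. The *Hspa5* window contained an exact ER stress element at 65 to 47 bases before the start, and either orientation of this element was found in 0.113% of all windows. This element too was searched with exact letters only, so copies that differ in a letter were neither marked nor counted. The windows of *Hspa1a* and *Hspa1b* were 98.8% identical, and the genes lie next to each other at chr17:34969359-34972156 and chr17:34956429-34959238. Their transcripts are known to be near identical and the sequence of the probe was not among the files, so whether the *Hspa1a* probe (NM_010479) also measured *Hspa1b* is uncertain.

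LPS changed 2 to 4 of the 9 measured heat shock genes in a genotype, and in opposite directions. In wt BMDM, 2 of the 9 measured genes were called, that is, passed an adjusted p of 0.05 in limma, compared with 16.9% of all genes tested. *Hspa1a* rose (8.16% of all genes rose) and *Dnajb1* fell (8.78% fell). In MK2-/- BMDM, 4 of 9 were called (18.4% of all genes), with *Hspa1a*, *Hspa5* and *Hsp90aa1* higher (8.41%) and *Dnajb1* lower (9.98%). In MK2/3-/- BMDM, 3 of 9 were called (24.7% of all genes), with *Hspa1a* and *Hspa5* higher (11.9%) and *Dnajb1* lower (12.8%). The median log2 difference over the 9 genes was 0.09, 0.05 and -0.02 in wt, MK2-/- and MK2/3-/- BMDM, with medians over all genes of 0.01, -0.01 and -0.02.

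**Figure D1:**
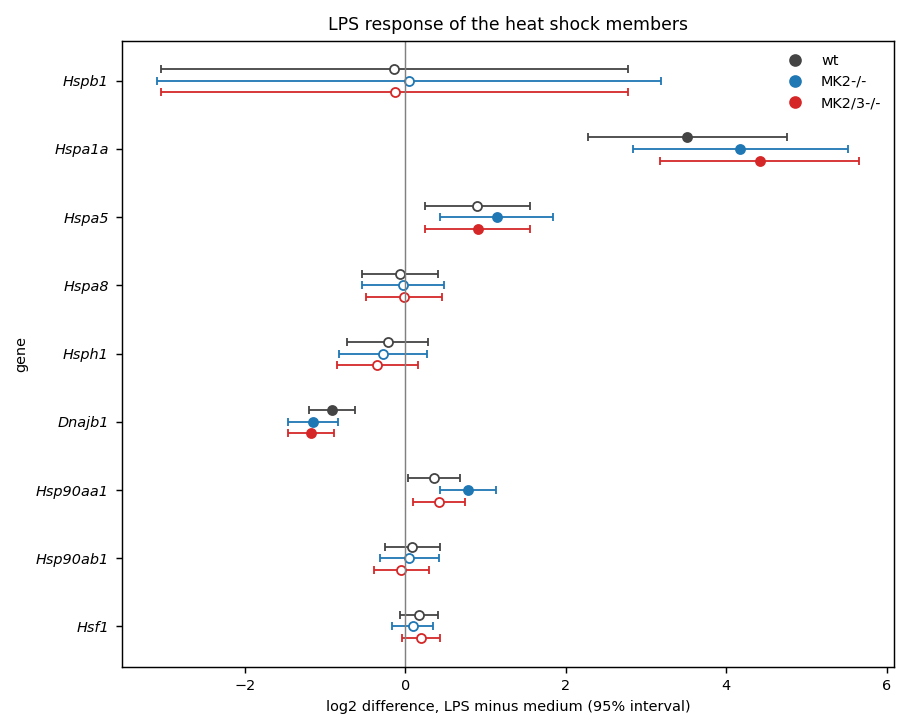
Log2 difference between LPS and medium (x axis) for the 9 measured heat shock genes (y axis) in wt, MK2-/- and MK2/3-/- BMDM. Points are limma estimates, bars are 95% intervals, and filled points passed an adjusted p of 0.05; *Hspa1a* lies between 3.51 and 4.42 and *Dnajb1* between -1.18 and -0.92 in the 3 genotypes. The fit does not pair the arrays of a culture.

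*Hspa1a*, the stress-inducible HSP70, had the largest response. Its log2 signals in wt BMDM were 8.95, 6.58, 5.89 and 5.58 in medium and 11.12, 10.72, 9.68 and 9.53 after LPS, in the order of cultures 1 to 4. In MK2-/- BMDM they were 6.995, 7.05 and 6.13 in medium (cultures 1, 2 and 4) and 11.77, 11.49, 10.09 and 10.27 after LPS. In MK2/3-/- BMDM they were 6.65, 6.48, 5.77 and 6.32 in medium and 11.31, 11.09, 9.96 and 10.51 after LPS. Every LPS array lay above every medium array of its genotype, and in each of the 6 groups cultures 1 and 2 lay above cultures 3 and 4. The culture number is also the slide column, and the part of either in this order was not tested. *Hspa1a* rose 11.4-fold in wt BMDM, with a log2 difference of 3.51 (SE 0.59, adjusted p = 2.4e-04). The log2 difference was 4.18 (SE 0.64, adjusted p = 8.2e-05) in MK2-/- and 4.42 (SE 0.59, adjusted p = 1.3e-05) in MK2/3-/- BMDM. The exact permutation test gave its smallest possible p of 0.0286 in each genotype. With the unmoderated test that the methods of the study name, the rise in wt BMDM no longer passed the adjustment (adjusted p = 0.053 on log2 values and 0.11 on linear values), and on linear values neither did that in MK2-/- BMDM (0.14). No probe was mapped to *Hspa1b*, and after this was seen the genes most like *Hspa1a* over the 23 arrays were taken in its place. They were *Creb1* (r = 0.976), *Sar1a* (0.973), *Rgcc* (0.971), *Ripk2* (0.970) and *Ccl22* (0.969). These were the 5 highest of 16006 genes compared, and the gene at rank 20 still had r = 0.960. The arrays shared cultures and slides. Medium and LPS arrays were pooled, so r includes the difference between LPS and medium. Likeness apart from this difference was not tested.

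In medium, wt culture 1 had the highest signal of its group for *Hspa1a* and some other heat shock genes. Its *Hspa1a* signal of 8.95 was above the other arrays of the group, which reached 6.58. Its signals of *Hsph1* (11.90), *Hsp90aa1* (13.84), *Hspb1* (14.94) and, narrowly, *Hsp90ab1* (16.343 against 16.338) were also the highest of the group. For *Hspa5*, *Hspa8*, *Dnajb1* and *Hsf1* culture 2 was the highest instead. No gene in wt BMDM in medium passed the outlier criterion described further below. Within this culture *Hspa1a* differed by 2.17 between LPS and medium, the lowest value of the 11 cultures with both arrays, in which the difference reached 4.78. Without the medium array of this culture the difference in wt BMDM was 4.25, and without both of its arrays 3.96.

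*Dnajb1*, whose product stimulates the ATPase of HSP70, fell in the same cells. Its log2 signals in medium and after LPS were 13.67, 13.74, 13.47 and 13.50 and 12.91, 12.34, 12.74 and 12.73 in wt BMDM. They were 13.55, 13.45 and 13.60 and 12.09, 12.51, 12.38 and 12.54 in MK2-/- BMDM. They were 13.42, 13.59, 13.63 and 13.57 and 12.32, 12.38, 12.15 and 12.64 in MK2/3-/- BMDM. The groups did not overlap in any genotype, and the lowest of the 11 medium arrays (13.42) was above the highest of the 12 LPS arrays (12.91). In wt BMDM the log2 difference was -0.92 (SE 0.14, adjusted p = 6.6e-05). It was -1.15 (SE 0.15, adjusted p = 1.1e-05) for MK2-/- and -1.18 (SE 0.14, adjusted p = 2.2e-06) for MK2/3-/- BMDM. The fall passed the adjustment in all 3 genotypes under each of the 38 other settings, with values between -0.58 and -1.27. *Hsph1*, the HSP110 exchange factor, was lower after LPS in 10 of 11 cultures, but its differences of -0.22, -0.28 and -0.35 (SE 0.24, 0.26 and 0.24) in wt, MK2-/- and MK2/3-/- BMDM did not pass the test (adjusted p = 0.66, 0.56 and 0.34). Its other probe gave -0.31, -0.42 and -0.43, and was not called either.

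*Hspa5*, which encodes the HSP70 of the endoplasmic reticulum (BiP), was higher after LPS in all 11 cultures. Its log2 signals in medium and after LPS were 15.66, 16.05, 15.24 and 15.24 and 16.36, 17.27, 16.31 and 15.85 in wt BMDM. They were 14.82, 15.92 and 15.12 and 16.10, 16.996, 16.28 and 16.31 in MK2-/- BMDM, and 15.71, 16.04, 15.17 and 15.14 and 16.58, 16.79, 16.17 and 16.14 in MK2/3-/- BMDM. Culture 2 had the highest *Hspa5* signal in all 6 groups, and only the wt groups overlapped, where culture 4 after LPS was below culture 2 in medium. Within a culture the difference was between 0.61 and 1.29, with a mean of 0.98 ± 0.22 (SD, n = 11). In limma the difference was 1.14 (SE 0.34, adjusted p = 0.022) in MK2-/- and 0.90 (SE 0.31, adjusted p = 0.040) in MK2/3-/- BMDM, and 0.90 (SE 0.31, adjusted p = 0.057) in wt BMDM, where it was not called. With the culture as a block the difference in wt BMDM was called as well (adjusted p = 0.013). Leaving out single arrays ended the call in MK2-/- BMDM (medium 1 or 3 or LPS 2, adjusted p up to 0.13) and in MK2/3-/- BMDM (medium 3 or 4 or LPS 1 or 2, up to 0.12, or both arrays of wt culture 1, 0.056).

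*Hsp90aa1*, the inducible HSP90, had signals of 12.86, 13.18 and 12.99 in medium and 13.61, 14.03, 13.75 and 13.75 after LPS in MK2-/- BMDM. It rose there by 0.78 (SE 0.17, adjusted p = 0.0020), a 1.71-fold change. The signals were 13.84, 13.33, 13.20 and 13.39 in medium and 14.03, 13.94, 13.68 and 13.55 after LPS in wt BMDM, and these arrays overlapped. In MK2/3-/- BMDM they were 13.36, 13.77, 13.26 and 13.38 in medium and 13.87, 13.98, 13.77 and 13.83 after LPS, where the lowest LPS array was just above the highest medium array. The differences of 0.36 in wt (SE 0.15, adjusted p = 0.14) and 0.42 in MK2/3-/- BMDM (SE 0.15, adjusted p = 0.053) did not pass the test. Within cultures all 11 differences were above 0, between 0.15 and 0.85, and with the culture as a block the difference in MK2/3-/- BMDM was called (adjusted p = 0.016). In wt BMDM the difference was called without the medium array of culture 1 (0.49, adjusted p = 0.031).

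The constitutive chaperones and the factor itself were not called in any genotype. *Hspa8*, the constitutive HSP70, was between 15.61 and 16.44 on the 23 arrays, and LPS differed from medium by -0.06, -0.03 and -0.02 (SE 0.22, 0.24 and 0.22) in wt, MK2-/- and MK2/3-/- BMDM. The other probes of *Hspa8* were not called either, and 1 of them had a low value of 12.78 in MK2/3-/- BMDM after LPS, culture 3. *Hsp90ab1*, the constitutive HSP90, was between 15.70 and 16.53, with differences of 0.09, 0.05 and -0.05 (SE 0.16, 0.18 and 0.16). *Hsf1* was between 10.31 and 10.81, with differences of 0.18, 0.10 and 0.20 (SE 0.11, 0.12 and 0.11), of which none passed the adjustment (adjusted p = 0.36, 0.69 and 0.24). All 4 wt LPS arrays of *Hsf1* lay above the 4 wt medium arrays (exact permutation p = 0.0286, the smallest possible).

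**Figure D2:**
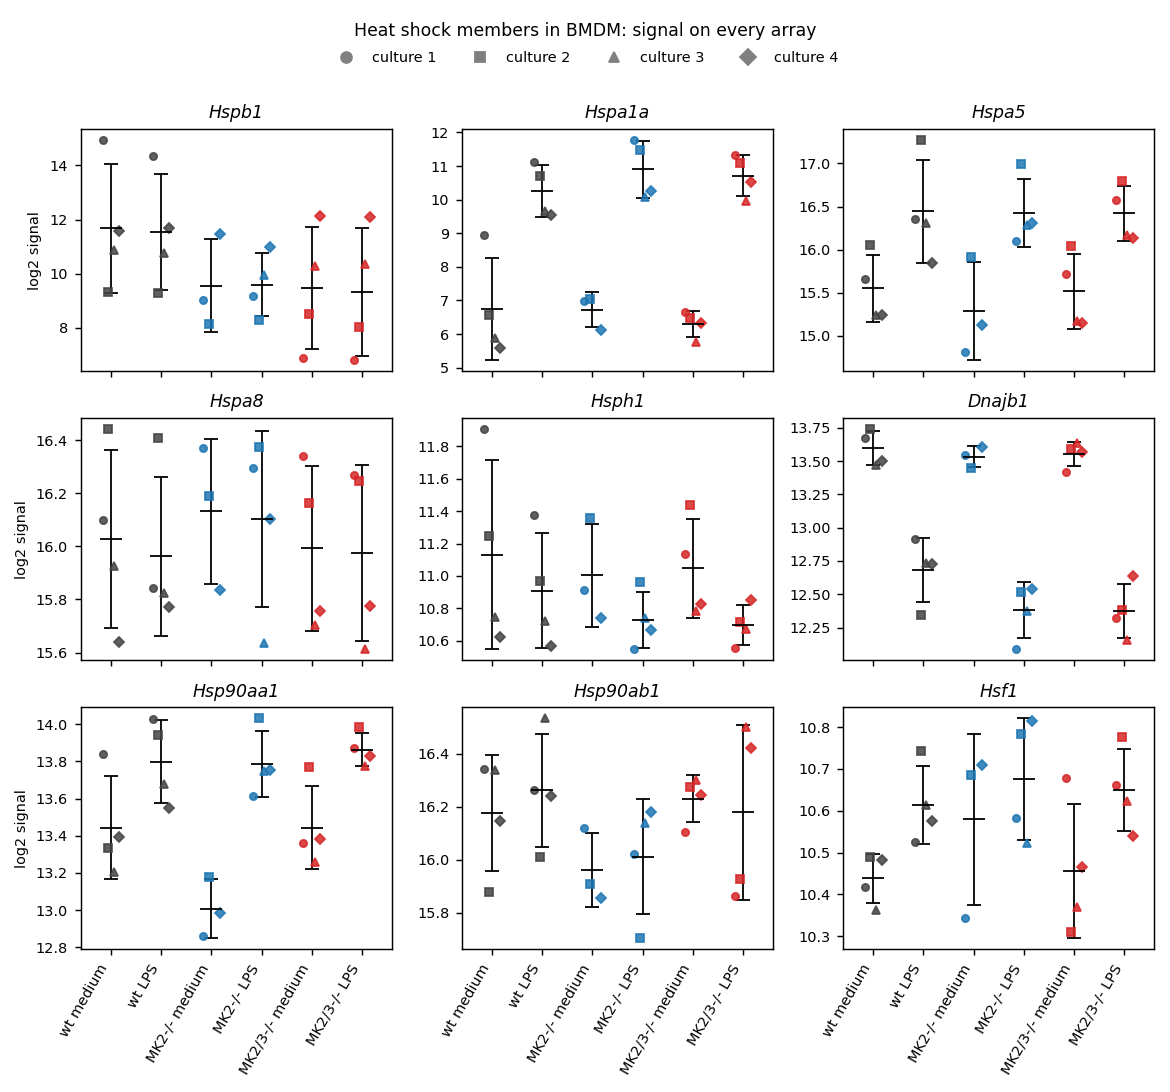
Log2 signal (y axis, its own range in each panel) of the 9 measured heat shock genes on the 23 arrays, by group (x axis). Symbols are cultures, and bars are the mean and SD of 3 or 4 arrays; *Dnajb1* separates all medium arrays (13.42 and above) from all LPS arrays (12.91 and below), while *Hspb1* runs from 6.80 to 14.94 with the cultures in the same order in medium and after LPS within each genotype.

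Scaling to the 75th percentile of each array in place of quantile normalization gave a median of all genes of 0.15, 0.20 and 0.06 on the log2 scale for LPS in wt, MK2-/- and MK2/3-/- BMDM, in place of 0.01, -0.01 and -0.02. With it the fall of *Dnajb1* was -0.58, -0.83 and -0.88 and stayed past the adjustment (adjusted p up to 0.0075). *Hspa5* and *Hsp90aa1* then passed the adjustment in all 3 genotypes. The differences of *Hspa8*, which were not called under either scaling, changed sign to 0.26, 0.35 and 0.34.

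*Hspb1*, the MK2 substrate at chr5:135887919-135889563 (NM_013560), showed another pattern: its signal varied more between cultures of a genotype than between medium and LPS of a culture. Its log2 signals in wt BMDM were 14.94, 9.30, 10.87 and 11.56 in medium and 14.37, 9.29, 10.77 and 11.70 after LPS, for cultures 1 to 4. In MK2-/- BMDM they were 9.04, 8.14 and 11.46 in medium (cultures 1, 2 and 4) and 9.16, 8.27, 9.96 and 10.99 after LPS. In MK2/3-/- BMDM they were 6.90, 8.52, 10.28 and 12.12 in medium and 6.80, 8.01, 10.37 and 12.11 after LPS. Both arrays of a culture were alike, whereas wt cultures in medium ran from 9.30 to 14.94. Over all arrays the range was 8.14, or 282-fold. The difference between LPS and medium within a culture was between -0.57 and 0.14, with a mean of -0.12 ± 0.27 (SD, n = 11), and was below 0 in 7 of 11 cultures. The SD of *Hspb1* within groups, pooled over the 6 groups, was 2.07, above that of 99.5% of the 16007 genes that were well above background on all arrays of at least 1 group, whose median SD was 0.36. Between LPS and medium the difference was -0.14, 0.05 and -0.13 (SE 1.39, 1.50 and 1.39) in wt, MK2-/- and MK2/3-/- BMDM, and none of these passed the test (adjusted p = 0.98, 0.99 and 0.97). This fit did not pair the arrays of a culture, so its SE holds the spread between cultures, unlike the differences within a culture.

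The genes whose signals followed *Hspb1* most closely over the 23 arrays were *Myl9* (myosin light chain of contractile cells, Pearson r = 0.994), the transcript NM_009365 (0.990), *Dpysl3* (0.989), *P3h4* (collagen modification, 0.989) and *Aebp1* (an extracellular matrix protein, 0.988). They were picked as the 5 highest of 16006 genes compared, and the arrays shared cultures and slides.

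Of the 4 fibroblast markers, the collagens *Col1a1* and *Col3a1* moved with *Hspb1*. *Pdgfra*, mostly near background, did so less closely, and *Dcn* did not. *Col1a1*, the collagen of connective tissue cells, was 14.36, 9.49, 12.23 and 13.23 in wt BMDM in medium and 14.03, 9.40, 12.11 and 13.20 after LPS, for cultures 1 to 4. After LPS it was 8.75, 7.84, 10.86 and 12.98 in MK2-/- and 7.20, 8.45, 11.57 and 13.57 in MK2/3-/- BMDM. Within each genotype, the order of the 4 LPS arrays was the same for *Hspb1*, *Col1a1* and *Col3a1*, and 4 cultures per slide are too few for a correlation within a slide. Over the 12 cultures after LPS, *Hspb1* correlated with *Col1a1* with r = 0.943 and rho = 0.993 (permutation p = 1.0e-05 for each, the smallest that 100000 permutations can give, adjusted 2.0e-05 over 4 relations). These p-values take the 12 cultures as independent, although they lay on 3 slides. Arrays with the same number and treatment in different genotypes also deviated together, with a median r of 0.153 over 22 pairs and 26399 genes. For 12725 genes that each array showed well above background, r of these pairs was from -0.110 to 0.816, with a median of 0.370. Both *Hspb1* and *Col1a1* were well above background on each of the 23 arrays. Without the 2 cultures farthest from the median of *Hspb1*, r between *Hspb1* and *Col1a1* was 0.975. For *Col3a1*, r was 0.934 and rho 0.965 (permutation p = 1.0e-05 and adjusted 2.0e-05 for each), and r was 0.964 without these cultures. For *Pdgfra*, a receptor of mesenchymal cells that was well above background on 2 arrays only, r was 0.768 and rho 0.671 (permutation p = 0.0014 and 0.020, adjusted 0.0019 and 0.027), and r was 0.560 without these cultures. For *Dcn*, r was -0.05 and rho -0.06 (permutation p = 0.88 and 0.87, adjusted the same).

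All 4 fibroblast markers were measured, and between 1 and 4 of them were well above background on an array. The log2 of their summed signals ran from 9.63 to 14.44 in wt BMDM in medium and from 9.57 to 14.15 after LPS. It ran from 7.68 to 13.15 and from 8.20 to 13.05 in MK2-/-, and from 7.03 to 14.15 and from 7.66 to 13.68 in MK2/3-/- BMDM. The sum adds unlogged signals of different probes and is mostly the signal of *Col1a1*. In wt culture 1 in medium, *Col1a1* alone was 14.36 and the sum 14.44. The sum is therefore no reading of the 4 markers apart from *Col1a1*. *Dcn* was between 2.27 and 5.57 and well above background on 16 arrays. More cells of a type and more RNA per cell cannot be told apart in RNA of a whole culture, and the part of other cells in the *Hspb1* signal was not tested. Among the small heat shock proteins, *Hspb8* was highest in the same wt culture 1 (7.76 in medium and 7.75 after LPS, against 1.78 to 5.35 in the other wt cultures), and so was *Cryab* (9.74 and 9.80, against 7.64 to 8.49). *Hspb8* was not well above background in wt culture 2, and in the knockouts it was so in culture 4 only (4.71 to 5.92). *Cryab* stayed between 7.92 and 8.27 in MK2-/- and between 8.11 and 8.70 in MK2/3-/- BMDM.

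**Figure D3:**
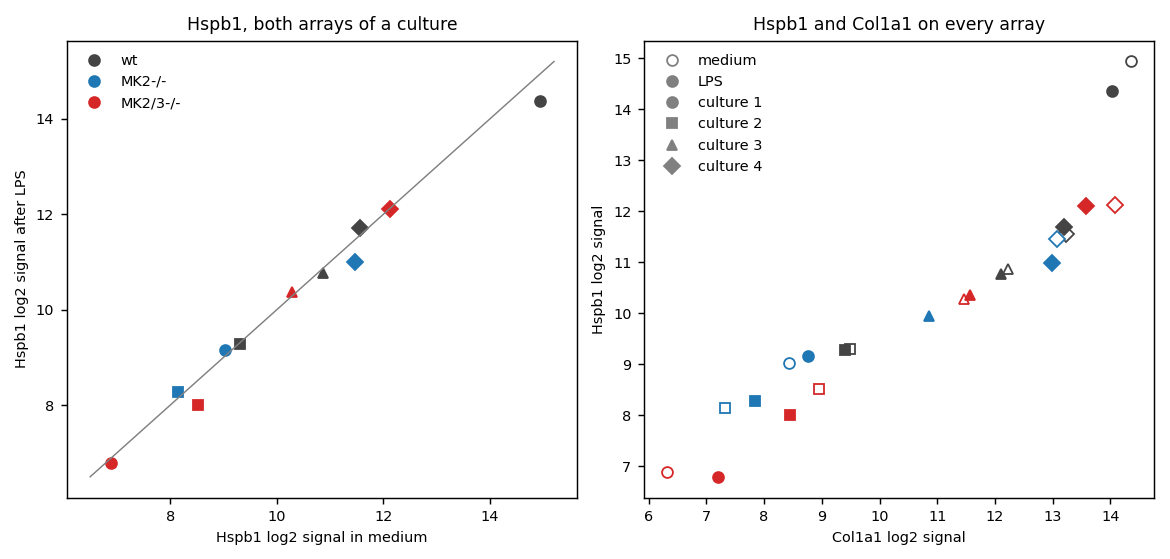
Left, log2 signal of *Hspb1* after LPS (y axis) against medium (x axis) in the 11 cultures with both arrays, with the line of equal signals; right, *Hspb1* (y axis) against *Col1a1* (x axis) on the 23 arrays. Colours are genotypes, symbol shapes are cultures, and on the right open symbols are medium and filled symbols LPS. The difference of a culture from the line is between -0.57 and 0.14, while the cultures span more than 8 log2 units and rise with *Col1a1*.

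Comparing the genotypes asks whether loss of MK2, or of MK2 and MK3, changed the transcript levels of these chaperones. In medium, none of the 9 genes was called between MK2-/- and wt (0.00754% of all genes were called), MK2/3-/- and wt (0.0792%) or MK2/3-/- and MK2-/- BMDM (0.0453%). After LPS, none was called between MK2-/- and wt (0.0302%), MK2/3-/- and wt (1.64%) or MK2/3-/- and MK2-/- BMDM (0.158%). None of the LPS responses differed between MK2-/- and wt (0.00377%), MK2/3-/- and wt (0.0113%) or MK2/3-/- and MK2-/- BMDM (0%). At an unadjusted p under 0.05 the 9 comparisons held 1, 0, 1, 1, 1, 0, 0, 0 and 0 of these genes in this order, and none of the other settings called any.

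The *Hspb1* means of the knockouts and wt BMDM lay within a wide error of each other. It was 11.67 ± 2.38 (SD, n = 4) in wt, 9.55 ± 1.72 (n = 3) in MK2-/- and 9.45 ± 2.25 (n = 4) in MK2/3-/- BMDM in medium, and 11.53 ± 2.14, 9.60 ± 1.16 and 9.32 ± 2.38 (n = 4 each) after LPS. In medium the difference from wt was -2.12 in MK2-/- (95% interval -5.27 to 1.02, exact permutation p = 0.20) and -2.21 in MK2/3-/- BMDM (-5.13 to 0.70, exact permutation p = 0.23). After LPS it was -1.94 (-4.85 to 0.97, exact permutation p = 0.17) and -2.21 (-5.12 to 0.70, exact permutation p = 0.26). Without both arrays of wt culture 1, the 4 differences were -1.04, -1.13, -0.995 and -1.27 in this order. The 4 fibroblast markers had median differences of -1.39 and -0.90 in medium and -1.42 and -1.04 after LPS in the same comparisons, none of them called, and their part in the *Hspb1* differences was not tested.

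For the other genes the intervals were narrower. *Dnajb1* after LPS differed from wt by -0.30 (SE 0.14) in MK2-/- and -0.31 (SE 0.14) in MK2/3-/- BMDM, with unadjusted p = 0.041 and 0.038 and adjusted p = 0.65 and 0.33 in limma, and 1 and 2 of 4 arrays were below all wt arrays. The response of *Dnajb1* to LPS differed from that in wt BMDM by -0.24 (95% interval -0.66 to 0.18) in MK2-/- and -0.26 (-0.67 to 0.14) in MK2/3-/- BMDM. *Hsp90aa1* in medium differed by -0.43 between MK2-/- and wt BMDM (SE 0.17, unadjusted p = 0.017, adjusted p = 1.00), with all 3 MK2-/- arrays below the wt arrays. Between MK2/3-/- and MK2-/- BMDM it differed by 0.43 (SE 0.17, unadjusted p = 0.017, adjusted p = 1.00), with all 4 MK2/3-/- arrays above. Both comparisons share the MK2-/- medium arrays. The response of *Hspa1a* differed from that in wt BMDM by 0.66 (95% interval -1.16 to 2.49) in MK2-/- and 0.90 (-0.85 to 2.66) in MK2/3-/- BMDM. For *Hspa5* these differences were 0.24 (-0.72 to 1.21) and 0.01 (-0.92 to 0.93).

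**Figure D4:**
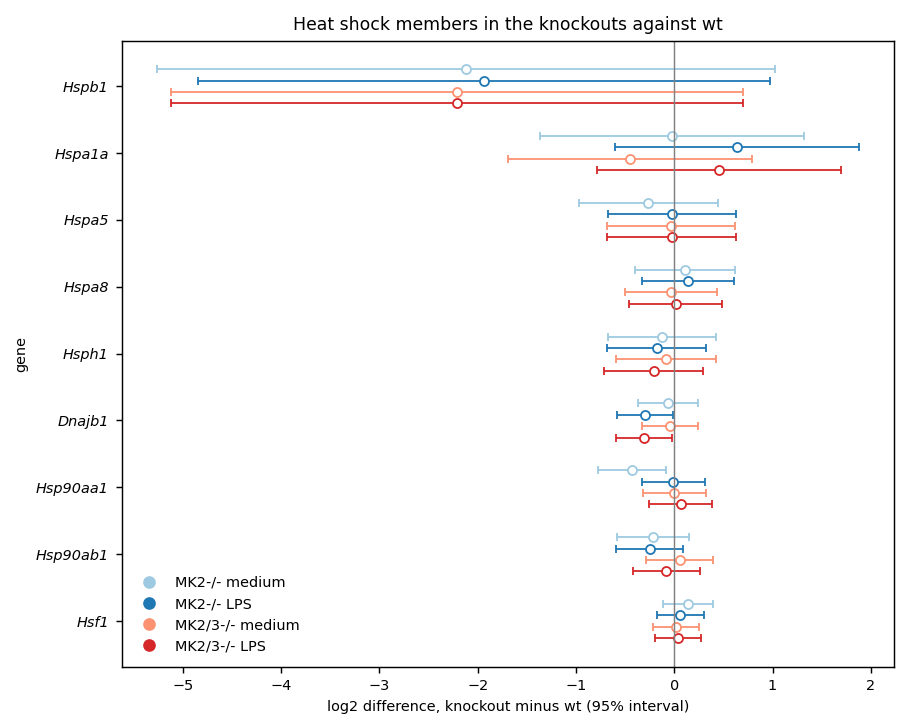
Log2 difference between a knockout and wt BMDM (x axis) in medium and after LPS for the 9 measured heat shock genes (y axis), as limma estimates with 95% intervals. No point passed the adjustment, and the *Hspb1* intervals reach from -5.27 to 1.02 while those of *Hsf1* stay between -0.22 and 0.40.

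The wider chaperone system was followed with 92 further genes in 7 lists. LPS changed 19 of them in wt BMDM (15 rose and 4 fell), which is 20.7% of the 92 beside 16.9% of all genes. It changed 22 in MK2-/- BMDM (14 rose and 8 fell), or 23.9% beside 18.4%, and 25 in MK2/3-/- BMDM (13 rose and 12 fell), or 27.2% beside 24.7%. Counted in either direction, these shares are near those of all genes. By direction, 8.16%, 8.41% and 11.9% of all genes rose and 8.78%, 9.98% and 12.8% fell in wt, MK2-/- and MK2/3-/- BMDM. A larger share of the 92 genes than of all genes rose in all 3 genotypes, by the least in MK2/3-/- BMDM. A smaller share fell in wt BMDM and, by little, in MK2-/- BMDM, and about the same share fell in MK2/3-/- BMDM. These differences were not tested. The counts of the single lists are read against the shares of their direction. The J-domain proteins other than *Dnajb1* held the largest rises. Of 18 measured, 5 rose in each genotype (*Dnaja1*, *Dnaja2*, *Dnajb2*, *Dnajb4* and *Dnajb6*), with *Dnajc7* lower in all 3 genotypes. *Dnajb2* rose by 2.16, 2.73 and 2.64, *Dnajb4* by 1.96, 2.50 and 2.08 and *Dnaja2* by 1.60, 1.76 and 1.88 in wt, MK2-/- and MK2/3-/- BMDM (adjusted p up to 5.9e-05). In both knockouts *Dnaja3*, *Dnajb12* and *Dnajb14* fell too, so that 4 fell in each, while the median over the list was 0.02, -0.16 and -0.11.

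Of the 20 HSP90 paralogs and co-chaperones, 4, 3 and 3 rose and 1, 1 and 3 fell. *Stip1*, which links HSP70 to HSP90, rose by 1.59, 1.82 and 1.84, *Ptges3*, the HSP90 co-chaperone p23, by 0.71, 0.77 and 0.98, and *Chordc1*, which binds HSP90, by 0.61, 0.71 and 0.75. *Cdc37*, the kinase co-chaperone of HSP90, rose in wt BMDM (0.36, adjusted p = 0.038). *Bag4*, a BAG domain protein that binds HSP70, fell by 1.27, 1.58 and 2.03, and *Ahsa1*, which stimulates the ATPase of HSP90, and *Bag5* fell in MK2/3-/- BMDM by 0.66 and 0.90. The median over the list was -0.12, -0.07 and -0.01. None of the 10 chaperonins changed in any genotype (median 0.05, 0.01 and -0.07). Of the 10 other HSP70 and HSP110 proteins, 1, 2 and 3 rose and none fell. *Hspa13* rose in all 3 genotypes (0.84, 0.65 and 0.91), *Hyou1*, the HSP110 of the endoplasmic reticulum, in MK2-/- (0.63) and MK2/3-/- BMDM (0.92), and *Hspa12b* in MK2/3-/- BMDM (1.24). The median over this list was 0.20, 0.31 and 0.14.

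Of the 24 ER stress genes, which share *Hyou1* and 4 others with the lists above, 4, 5 and 2 rose and 1, 3 and 3 fell, with a median of -0.13, -0.04 and -0.08. *Edem1*, a part of ER-associated degradation, was the 1 gene of this list that rose in all 3 genotypes (0.63, 0.46 and 0.66), and *Eif2ak3*, which encodes the ER stress kinase PERK, the 1 gene that fell in all 3, by 1.91, 2.17 and 2.16. *Herpud1*, of the same pathway as *Edem1*, rose by 0.98 in wt and 1.11 in MK2-/- BMDM and differed by 0.58 in MK2/3-/- BMDM (adjusted p = 0.052). *Atf4*, a transcription factor of the stress response, rose by 0.72 in wt and 1.04 in MK2-/- BMDM, and *Ddit3*, which encodes CHOP, fell by 1.39 in MK2-/- and 1.15 in MK2/3-/- BMDM. *Sel1l* also rose in wt (0.53) and MK2-/- BMDM (0.76), and *Ern1*, which encodes the ER stress sensor IRE1, fell in MK2-/- (1.03) and MK2/3-/- BMDM (0.66). *Hsp90b1*, the ER paralog of HSP90, did not pass the test in any genotype (-0.12, -0.08 and 0.07), and neither did *Xbp1* (0.16, 0.05 and -0.04).

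Of the 9 other small heat shock proteins none changed in wt and MK2-/- BMDM (median 0.03 and 0.04). In MK2/3-/- BMDM (median 0.01), *Cryaa* rose by 2.13, with 1 of 4 medium arrays well above background, and *Hspb11* fell by 0.49. Among 6 heat shock factors and binding proteins (median 0.02, -0.15 and -0.05), *Hsf2* rose by 0.78 in wt BMDM and *Hsbp1*, which binds HSF1, fell by 0.39 in MK2/3-/- BMDM. *Hsf5* was called in wt BMDM, where none of its signals was well above background. Between genotypes, 1 of the 92 genes was called in 1 comparison: *Bag5* was lower by 0.85 (log2 difference -0.85, adjusted p = 0.0032) in MK2/3-/- than in wt BMDM after LPS. This is 1.09% of the 92 genes, beside 1.64% of all genes in that comparison. The genes beyond the 3 largest changes of a list, and *Hsp90b1*, *Xbp1*, *Hspb8* and *Cryab*, were chosen after their values were seen.

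**Figure D5:**
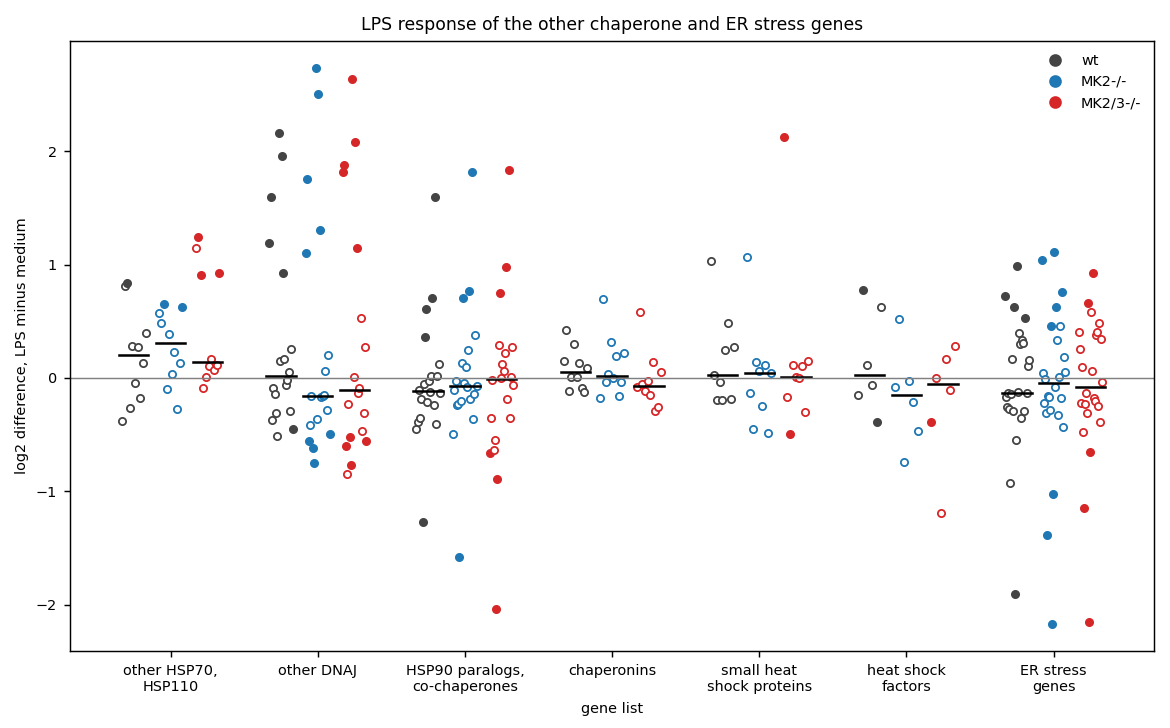
Log2 difference between LPS and medium (y axis) of single genes in 7 chaperone and ER stress lists (x axis) in wt, MK2-/- and MK2/3-/- BMDM. Filled points passed an adjusted p of 0.05 and bars are list medians, which stay between -0.16 and 0.31, with *Dnajb2* (up to 2.73) and *Eif2ak3* (down to -2.17) farthest from 0.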

How the data were processed

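RNA of 12 BMDM cultures, 11 of them with a medium and an LPS sample, was hybridised to 23 arrays (Agilent whole mouse genome, 1 colour, 62976 spots each). The authors scanned them and deposited the spot intensity values written by Agilent Feature Extraction 11.0.1.1, from which the processed signal, already background-subtracted and spatially detrended, was used. The gradient fit was missing on 2 arrays (MK2-/- LPS 1 and MK2/3-/- medium 2). The authors also deposited a table of log2 values with 55821 probe rows and column medians from -0.0195 to 0.0239. These values matched quantile normalized signals relative to each probe's median (r = 1.00 over the non-control probes that both hold). That table was used as an alternative. Between 48.4% and 69.4% of non-control spots were well above background on an array. Non-control spots were never saturated, and precision is limited by how many arrays there were.

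Control spots and flagged outliers were left out, spots of a probe were averaged, and log2 signals were quantile normalized (limma 3.58.1, R 4.3.3). Of 55681 probes, 33391 carried an accession, and 27509 of 29150 RefSeq accessions were named through the RefSeq table of GRCm38.p6. A gene was represented by its probe with the highest LPS difference in wt BMDM, which favours higher LPS values for *Hspa8* and *Hsph1* and for other genes with several probes. All 6 groups were fitted together with lmFit and eBayes, and p-values were adjusted by Benjamini-Hochberg over 26512 genes, with 0.05 as threshold. Single genes were also tested with two-sided exact permutation tests (smallest p 0.0286). The steps were tested on simulated data, and figures were drawn with matplotlib 3.10.9. P-values measure the spread between arrays of a group.

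Medium and LPS arrays of a culture deviated together from their group means (r from 0.0626 to 0.561 over 26399 genes, median 0.252, above 0.1 in 10 of 11 pairs). For 12725 genes that all 23 arrays showed well above background, r was from 0.360 to 0.773 in all 11 pairs. The culture was therefore tried as a random block (consensus correlation 0.239), and the number shared by genotypes as a fixed block.

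The members, the gene lists and the rules were chosen with earlier results of these data known. All members were named, and of each list the 3 called genes that changed most. The alternatives were other scaling, background correction, probe choices, filters, tests and blocks, and fits without single arrays. Leaving out both arrays of wt culture 1 or both arrays without a gradient fit was chosen after seeing the data.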

Additional observations from a re-analysis of the deposited data

Results flagged for a closer look

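In 45 sets of 4 arrays, each a heat shock gene in a group, the highest or lowest array was compared with the others by Dixon's criterion, and 1 set passed it. *Hspa8* in wt BMDM after LPS was 16.41 in culture 2, with the nearest other array at 15.84. Chance flags about 1 in 20 such sets.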

How the results depend on the processing

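Over 38 other settings, the fall of *Dnajb1* after LPS kept its call in all 3 genotypes. The rise of *Hspa1a* kept it except with the methods' t-tests, in wt BMDM on both scales and in MK2-/- BMDM on linear values. *Hspa5* was called in 9, 32 and 30 of the 38 settings and *Hsp90aa1* in 2, 38 and 13, in wt, MK2-/- and MK2/3-/- BMDM. For LPS in wt BMDM, 4 heat shock genes were called with 75th percentile scaling and 1 with the methods' t-test on either scale, in place of 2. In MK2-/- BMDM 2 were called with the t-test on linear values in place of 4. Leaving out single arrays gave 2 to 3, 3 to 4 and 2 to 4 called genes. With the replicate block, by culture or by shared number, 3, 4 and 4 genes were called, and the block changed no call between genotypes. The causes were not tested. No called value changed sign, whereas 258 values that were not called did. Between genotypes, the *Hspb1* difference from wt was between -3.14 and -0.99 in all settings and was never called. The t-tests gave no test of a difference between LPS responses. The SE of 1.39 to 1.50 for *Hspb1* comes from a fit that does not pair the arrays of a culture. It limits which differences between genotypes, with 3 or 4 arrays a group, can be told from 0. The LPS differences of *Hspb1* within a culture had an SD of 0.27 (n = 11), which this SE does not use.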
